A study of Mus musculus with 4 samples.

Results

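RNA recovered with an antibody against fibrillarin was set against RNA of the whole cell, in 2 states of the small nucleolar RNA (snoRNA) AF357425. The samples were chosen by their labels, and all 4 of the 4 libraries of the series entered: AF357425-High pulldown against AF357425-High whole-cell RNA, and AF357425-Low pulldown against AF357425-Low whole-cell RNA. All came from primary fibroblasts grown out of C57BL/6 mouse ear clippings in medium with 10% serum, kept for 48 h in KN93, which inhibits CaM kinase II and served to bring the cells into the same cycle phase, before a transfection of 24 h. By the sample characteristics AF357425 was overexpressed in the High state and inhibited in the Low state, whereas the treatment protocol names gapmers (antisense oligonucleotides) against AF357425 and a scrambled control, so which transfection stands behind a state is not settled. The antibody was ab5821 of Abcam, and depletion of ribosomal RNA is stated for the pulldown libraries. The genotype is otherwise not described, and whether a pulldown and its whole-cell library came from the same culture is not stated.

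Fibrillarin is the methyltransferase of C/D box snoRNA particles. Within them it sits with Nop56, Nop58 and Snu13 on a snoRNA, whose guide sequence pairs with a target, mostly ribosomal RNA, and fibrillarin adds a methyl group to the 2'-hydroxyl of the ribose. It is concentrated in the nucleolus and in Cajal bodies, which hold related guide RNAs for the spliceosomal RNAs.

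Each group had 1 library, so no ratio given here has a replicate check within its state. The states are parallel pairs that share no library and are not replicates, so no model that takes them as such was run and no p-value is given. No pulldown with an unspecific antibody was analysed here, and the pulldown libraries were made with another library kit than the whole-cell libraries. Recovery with fibrillarin, the depletion step and the kit therefore cannot be told apart in any ratio. Values are reads, or reads per 1000000 gene-assigned reads (CPM), and pairs of values give AF357425-High before AF357425-Low. A ratio is the log2 of pulldown CPM over whole-cell CPM, with an exact (Clopper-Pearson) 95% interval that covers counting error only, since PCR copies cannot be told from separate molecules.

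Whole-cell RNA gave 22082565 and 21693030 gene-assigned reads and the pulldowns gave 25857770 and 27832061, so that 0 reads allow up to 0.136, 0.138, 0.116 and 0.108 CPM. The 9 fibroblast markers were found in all 4 libraries and summed to 9240 and 10500 CPM before and 2700 and 3140 CPM after the pulldown. Keratinocyte markers summed to at most 3.85 CPM with Krt1 and Krt14 at 0 in all libraries, and mast cell markers to at most 0.0461 CPM. In bulk RNA, fewer cells of a type and less RNA per cell cannot be told apart. Chondrocyte markers, whose genes are used in ear cartilage, summed to 262 and 185 CPM against 111 and 136 CPM. Fragments that fell on more than 1 gene and were left uncounted made up 1.28% and 1.33% in whole-cell RNA but 25.7% and 23% in the pulldowns, counted without the reads of mitochondrial ribosomal RNA. The strand setting of the counting is not given and may differ between the kinds of library, so values of genes that overlap another gene are uncertain, and the part of uncounted fragments in single ratios was not tested.

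The kinds of RNA in the pulldown differed from those in the whole cell in the same way in both states. The mitochondrial ribosomal RNAs took 63.4% and 59.8% of pulldown reads against 0.0926% and 0.0583% of whole-cell reads. Nuclear protein-coding genes took 28.5% and 32.7% against 90.9% and 90.3%, and long noncoding RNAs took 0.261% and 0.213% against 2.15% and 2.73%. The other mitochondrial genes took 1.91% and 1.98% against 0.962% and 0.986%. Loci that resemble the ribosomal RNA repeat held like shares in all libraries, 4.16% and 4.17% of whole-cell reads against 4.88% and 4.38% of pulldown reads, although the loci behind these shares differed, as their own values show. Pseudogenes took 0.106% of both pulldowns against 0.126% and 0.124% of whole-cell reads.

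**Figure D1:**
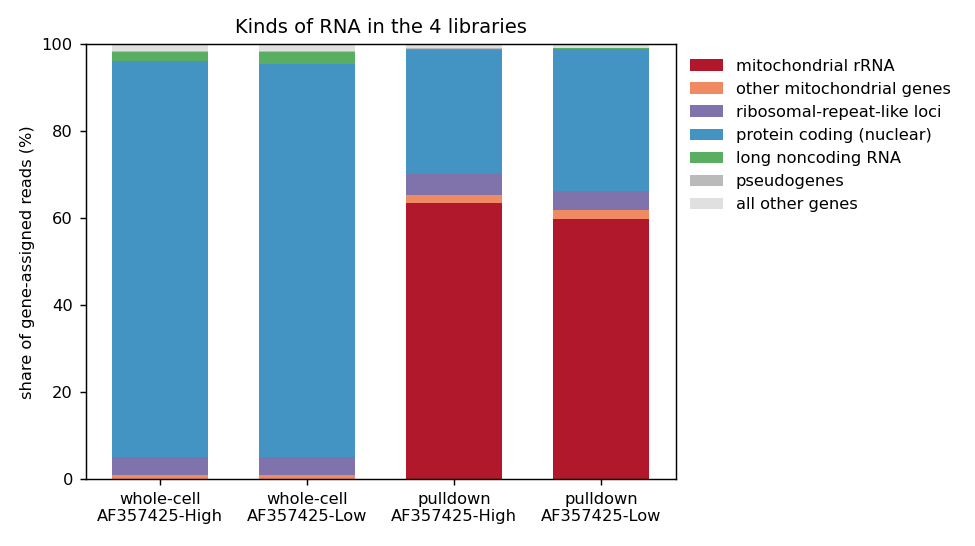
Share of gene-assigned reads (%, vertical axis) by kind of RNA in each of the 4 libraries, 1 stacked bar per library. Mitochondrial ribosomal RNA fills 63.4% and 59.8% of the pulldown bars and under 0.1% of the whole-cell bars.

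A gene counted as measured where its 4 libraries averaged 1 CPM or more, which 12795 genes did, and called where the whole interval lay beyond 2-fold in the same direction in both states. By library totals, 200 genes were higher in the pulldown (1.56% of those measured) and 7634 lower (59.7%). In AF357425-High alone 289 were higher (2.26%) and 9503 lower (74.3%), and in AF357425-Low alone 325 were higher (2.54%) and 7992 lower (62.5%). Of the genes higher in each state taken alone, the 200 shared ones made up 69.2% of those in AF357425-High and 61.5% of those in AF357425-Low. For the lower genes these shares were 80.3% and 95.5%. The median ratio of all measured genes was -2.16 and -1.76, with the middle 50% of genes between -3.2 and -1.23 in AF357425-High and between -2.89 and -0.76 in AF357425-Low.

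Because a few RNAs fill the pulldown, this split depends on the scaling. With totals that leave out mt-Rnr1 and mt-Rnr2, the median of all genes moved up by 1.45 and 1.31, and 798 genes were higher (6.24%) and 2965 lower (23.2%). With median-of-ratios scaling the split was 1406 higher and 1912 lower, and the medians moved up by 1.98 and 1.58. All 200 higher genes held under both totals, as did 2965 of the 7634 lower genes (1.56% and 23.2% of measured genes). Leaving out mt-Rnr1 and mt-Rnr2 moves every ratio of a state up by the same constant. This overlap was therefore fixed in advance and is no check of the calls. In what follows, a gene is called higher or lower only where both totals gave the call, unless library totals are named, and list medians are set beside the median of all genes, which moves with them. List counts stand against 1.56% higher and 23.2% lower of all measured genes, or 59.7% lower by library totals. Counts of members above or below the median of all genes in both states have no such share beside them. The highest and lowest members of a list are those by the mean ratio of both states with library totals, so that the order within 1 state can differ. Of the 200 higher genes, 102 averaged under 1 CPM in whole-cell RNA and were measured only through their pulldown reads. The filter fixed the direction of these genes, and counts and medians that include them are a description only.

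The ratios of the 2 states went together across genes. Over the 12795 genes, which are not independent of each other, the Pearson and Spearman correlations were both 0.831, and 74.4% of genes had ratios within 1 log2 unit of each other. The points share the kit and depletion of each kind of library. Genes called in opposite directions numbered 5 (0.0391%). Among measured genes, 69 had 0 reads in both pulldowns and 15 had 0 reads in both whole-cell libraries.

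**Figure D2:**
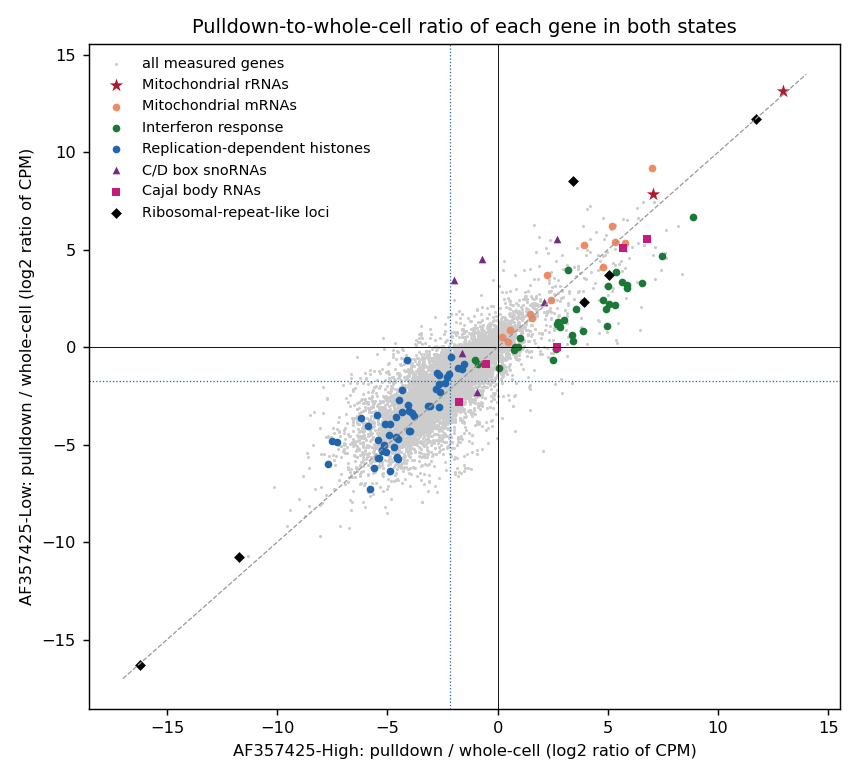
Log2 ratio of pulldown to whole-cell CPM in AF357425-High (horizontal axis) against AF357425-Low (vertical axis), 1 point per measured gene, with 7 gene lists in colour; dotted lines mark the medians of all genes (-2.16 and -1.76) and the dashed line marks equal ratios. Most genes lie below 0 in both states, mitochondrial ribosomal RNAs reach 12.94 and 13.14, and interferon-response genes lie mostly on the AF357425-High side of the dashed line.

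The guide RNAs that fibrillarin is known to bind were sparsely covered. AF357425 itself (chromosome 12, 109636012 to 109636080, GRCm38, inside the span of its host Rian) had 0 reads in all 4 libraries, so no ratio can be given for it. Of 113 genes named as C/D box snoRNAs, 69 had no reads and 6 were measured, of which 2 were higher and 0 lower. Of these 6, Snord118, Snord83b and Snord92 were measured only through their pulldown reads. The count of higher members and the median of the list, -0.82 and 2.88, therefore follow in part from the filter. Another gene overlaps 5 of the 6.

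Snord118, the U8 snoRNA needed for maturation of the large ribosomal subunit's RNAs (chromosome 11, 69073426 to 69073562, overlapping no gene), had 10 and 8 whole-cell reads against 76 and 475 pulldown reads. Its level was above whole-cell RNA in both states, by log2 ratios of 2.70 (1.74 to 3.82) and 5.53 (4.54 to 6.75). Snord17, which guides methylation of ribosomal RNA and lies in an intron of Snx5, had 69 and 58 reads against 345 and 364, with ratios of 2.09 (1.72 to 2.49) and 2.29 (1.89 to 2.72). These are the members called in both states. Snord83b, in Rpl3, had 20 and 16 reads against 6 and 226, and Snord92, in Wdr43, 7 and 5 against 5 and 148. The ratios of Snord83b were -1.96 (-3.57 to -0.60) and 3.46 (2.73 to 4.29) by library totals, and -0.51 and 4.77 without the mitochondrial ribosomal RNAs in the totals. For Snord92 they were -0.71 (-2.71 to 1.16) and 4.53 (3.27 to 6.17), and 0.74 and 5.84 with the other totals, so its side in AF357425-High is not settled. Snord104 (47 and 27 against 29 and 7 reads) and Snord43 (44 and 35 against 17 and 36 reads) were the lowest members by the mean of both states, and neither was called.

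By annotation rather than by name, RefSeq classed 18 measured genes as snoRNAs, of which 7 were higher in the pulldown and 3 lower by library totals (2 by both), and 9 as guide RNAs, a class that holds Cajal body RNAs, of which 4 were higher. Besides Snord118 and Snord17, the higher snoRNAs, named after seeing their values, were the unnamed genes Gm24336, Gm24339, Gm24920, Gm25776 and Gm25848, each inside a host gene. Gm24339, in Cep295, had 34 and 13 whole-cell reads against 660 and 524 pulldown reads. Gm25776, in Gtf2a1, had 7 and 2 against 288 and 174. The most abundant was the guide RNA gene Gm22009, in Kpna4, with 423 and 350 reads against 23247 and 16622, a ratio of 5.55 (5.41 to 5.69) and 5.21 (5.06 to 5.37). In each of these, both pulldown libraries lay above both whole-cell libraries, but they were picked from the genes called higher. Gm25776 was measured only through its pulldown reads, so the filter fixed its direction.

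Of 9 Cajal body RNAs, 5 were measured, 3 of them (Scarna6, Scarna9 and Scarna17) only through their pulldown reads, so that neither their count nor their median speaks for the list. Scarna9, a guide of modifications in spliceosomal RNA that also lies within Cep295, had 3 and 4 whole-cell reads against 386 and 242 pulldown reads (ratios 6.78, 5.22 to 9.06, and 5.56, 4.18 to 7.45). Scarna17 had 2 and 2 against 119 and 87 reads (5.67, 3.78 to 8.73, and 5.08, 3.19 to 8.15). Both were called higher and rest on few whole-cell reads, with a direction that the filter fixed. Scarna2, which overlaps no gene and had the most reads of the list, went the other way by library totals, with 2545 and 2557 reads against 875 and 468 (-1.77 and -2.81), a call that ended without the mitochondrial ribosomal RNAs in the totals. Scarna13 had -0.54 and -0.87 and was not called.

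H/ACA box snoRNAs guide pseudouridylation in particles that do not hold fibrillarin. Of 42 such genes by name 3 were measured, with a median of -3.50 and -5.03, and 2 were lower. All 3 overlap another gene, so their values are uncertain. Whether any of the unnamed snoRNA genes given above is of this kind was not determined, so these members do not speak for the kind. Snora17, in Snhg7, had 54 and 51 whole-cell reads against 0 and 2 pulldown reads. Snora73b, in Snhg3, had 29 and 101 reads against 0 and 0, and its host Snhg3 had 211 and 170 against 0 and 0, at least 82.4-fold and 72.7-fold lower. Snora23, in Ipo7, had 40 and 43 reads against 92 and 69 (0.97, 0.42 to 1.55, and 0.32, -0.25 to 0.91) and was not called by library totals.

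Other structured RNAs were mixed. The RNase MRP and RNase P RNAs, Rmrp and Rpph1, had 0 reads in all libraries but for 1 read of Rpph1 in AF357425-Low whole-cell RNA. Rnu5g, a U5 spliceosomal RNA gene that overlaps Gm40527, had 7 and 0 reads against 138 and 516 and was called higher. It was measured only through its pulldown reads, so the filter fixed its direction. Rnu2-10, of U2, had 20 and 25 against 38 and 47 (0.70 and 0.55; not called). Rn7sk, the 7SK RNA that holds back the elongation kinase P-TEFb, was lower by library totals only, with 24650 and 28644 reads against 6810 and 5667 (-2.08 and -2.70).

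Host genes are the long transcripts that carry snoRNAs in their introns. Of 34 such genes, 31 were measured, 0 were higher and 6 were lower (14 by library totals), where 23.2% of all measured genes were lower (59.7% by library totals). Without the mitochondrial ribosomal RNAs in the totals 5 were higher, where 6.24% of all measured genes were. Their median of -2.18 and -1.25 lay at -0.03 and 0.51 from that of all genes. Snhg3 and Snhg11 (42 and 54 reads against 0 and 2) were the lowest. Snhg14, the host of the Snord116 and Snord64 genes, had 15 and 17 reads against 110 and 58 (2.65, 1.86 to 3.53, and 1.41, 0.61 to 2.28), and Ncl, which encodes the nucleolar protein nucleolin, had 11149 and 10506 against 21749 and 28809 (0.74 and 1.10). Neither of these passed the line in both states by library totals, although the pulldown lay above whole-cell RNA in both. Snhg14 was measured only through its pulldown reads, so the filter fixed its direction. Of these 31 genes, 30 overlap another gene, commonly their own snoRNAs.

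Among nuclear-retained long noncoding RNAs, 18 of 25 were measured, 0 were higher and 7 lower (13 by library totals), with a median of -3.73 and -2.06. Malat1, a component of nuclear speckles, had 341039 and 478341 whole-cell reads against 28571 and 11031 pulldown reads. Its level was 14-fold and 55.6-fold lower in the pulldown (-3.81, -3.82 to -3.79, and -5.80, -5.83 to -5.77). Neat1, the scaffold of paraspeckles, had 40379 and 29074 reads against 2138 and 1465, which was 22.1-fold and 25.5-fold lower. Both RNAs stay in the nucleus, and each had all pulldown values below all whole-cell values.

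Of the Dlk1-Dio3 transcripts in these lists, Meg3 had 7172 and 8222 reads against 560 and 1021 (-3.91 and -3.37) and Mirg, the host of a microRNA cluster, 833 and 878 against 11 and 20 (-6.47, -7.48 to -5.62, and -5.82, -6.53 to -5.18); both were lower. Rian, whose introns hold AF357425, had 7421 and 7686 reads against 2675 and 3110, a ratio of -1.70 (-1.76 to -1.64) and -1.66 (-1.73 to -1.60). It was lower by library totals, but lay above the median of all genes in both states and was not called with the other totals (-0.25 and -0.35). Nespas, an antisense RNA of the Gnas locus, had 91 and 72 reads against 7 and 1 and was lower. By the mean of both states the highest members were Jpx (39 and 42 against 52 and 32) and Dleu2 (211 and 231 against 172 and 158), which were not called.

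Of the RNAs made inside mitochondria, both ribosomal RNAs were far higher in the pulldown. The small ribosomal RNA mt-Rnr1 (mitochondrial genome 70 to 1024) had 1459 and 1138 whole-cell reads against 13430006 and 13197946 pulldown reads, or 66.1 and 52.5 CPM against 519000 and 474000 CPM. That is 7860-fold and 9040-fold higher, with ratios of 12.94 (12.87 to 13.02) and 13.14 (13.06 to 13.23). The large ribosomal RNA mt-Rnr2 (1094 to 2675) had 18993 and 11512 reads against 2975256 and 3445597, 134-fold and 233-fold higher. The order of these RNAs was thus reversed between the kinds of library: mt-Rnr2 had more reads than mt-Rnr1 in both whole-cell libraries and fewer in both pulldowns.

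All 13 mitochondrial mRNAs lay above the median of all genes in both states, and 10 were higher, with a median of 2.4 and 3.7; without the mitochondrial ribosomal RNAs in the totals all 13 passed. The most abundant, mt-Co1, a catalytic subunit of cytochrome oxidase, had 113327 and 113574 reads against 180687 and 174985 (0.45, 0.43 to 0.46, and 0.26, 0.25 to 0.27). Together with mt-Cytb (0.21 and 0.50) and mt-Nd4 (0.54 and 0.90) it was not called by library totals. The complex I subunit mt-Nd1 had 17334 and 15776 reads against 107378 and 106531 (2.4, 2.38 to 2.43, and 2.4, 2.37 to 2.42), and mt-Nd6, the subunit encoded on the other strand and overlapping mt-Nd5, 1176 and 733 against 21039 and 35844 (3.93 and 5.25). The highest ratios were those of mRNAs nearly without whole-cell reads: mt-Nd3 had 0 and 1 against 448 and 739, mt-Atp8 had 0 and 0 against 190 and 157, and mt-Nd4l had 0 and 1 against 127 and 95. Sequences close to several mitochondrial genes also lie in the nuclear genome, so the split of reads of mt-Atp6, mt-Atp8, mt-Co2, mt-Co3, mt-Nd3 and mt-Nd4l is uncertain. Of the 22 mitochondrial tRNAs, 2 were measured, mt-Tp with 12 and 10 reads against 565 and 417 and mt-Tn with 0 and 0 against 44 and 69. Both were measured only through their pulldown reads, as were mt-Atp6, mt-Atp8, mt-Nd3 and mt-Nd4l of the 10 called mRNAs, so the filter fixed their direction.

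The nuclear mRNAs for mitochondrial proteins went the other way. Of 73 measured nuclear subunits of oxidative phosphorylation 0 were higher and 35 lower (70 by library totals), and 59 lay below the median of all genes in both states; the list median was -2.91 and -2.77. Ndufb6 of complex I had 428 and 383 reads against 4 and 12, and Uqcr11 of complex III 798 and 840 against 45 and 16. Ndufb2, the highest member, had 84 and 83 against 88 and 91 (-0.16, -0.61 to 0.29, and -0.23, -0.67 to 0.22), with no call. Of 75 measured mitochondrial ribosomal protein genes 25 were lower and 0 higher, with a median of -2.86 and -2.28, from Mrps34 with 218 and 333 reads against 1 and 3 to Mrpl32 with 286 and 262 against 382 and 286 (0.19 and -0.23).

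The 7 loci that resemble ribosomal RNA split to the extremes of both ends: of 6 measured, 4 were higher and 2 lower. Gm42418 had 195658 and 186478 whole-cell reads against 0 and 0 in the pulldowns, and Gm26917 had 720670 and 715075 against 245 and 529 (-11.75 and -10.76). CT010467.1 went the opposite way, with 308 and 274 against 1214923 and 1182446 (11.72 in both states). Lars2, a mitochondrial leucyl-tRNA synthetase gene listed here because its span takes up ribosomal-RNA-like reads, had 1026 and 1815 against 40326 and 30541. Reads of near-identical copies can be split differently by aligner and counter, so these values are uncertain.

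Among the 7 measured microRNA genes, 2 of these loci were higher and 4 were lower. Library reads over a microRNA gene come from a longer transcript or fragment, and the mature sequences are shown to identify the genes and, as capitals, the seed (bases 2 to 8) that pairs with targets; they are RefSeq sequences on GRCm38.p6, and no 2 of the 5 share a seed.
miR-6240: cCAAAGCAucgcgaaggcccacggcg
miR-6236: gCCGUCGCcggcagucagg
miR-127-3p: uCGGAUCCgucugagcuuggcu
miR-433-3p: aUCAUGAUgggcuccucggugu
miR-1188-5p: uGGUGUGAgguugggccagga

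Mir6240 (mature sequence at chr5:114851973-114851998, plus strand) had 0 and 0 whole-cell reads against 37 and 1402 pulldown reads, at least 10.5-fold and 364-fold higher. It was measured only through its pulldown reads, so the filter fixed its direction. Mir6236 (chr9:110281353-110281371, plus strand) had 401 and 808 against 7043 and 5076 (3.91, 3.76 to 4.06, and 2.29, 2.18 to 2.4). The other sequences belong to the Dlk1-Dio3 locus on chromosome 12, the locus of AF357425. Mir127 (chr12:109592888-109592909) had 50 and 46 whole-cell reads and Mir433 (chr12:109591781-109591802) 73 and 93, and neither had a read in either pulldown; both lie within Rtl1. Mir1188 (chr12:109611841-109611861), within Rian, had 59 and 50 against 0 and 2. Mir763, within Hmga2, was the remaining lower gene, with 147 and 130 against 1 and 0, while Mir3109 (36 and 38 against 6 and 18) was not called.

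Of 11 measured mRNAs for core proteins and assembly factors of the C/D snoRNA particle, 0 were higher and 1 was lower (5 by library totals). Their median of -1.08 and -1.39 lay 1.08 and 0.36 above that of all genes, and 7 of the 11 lay above it in both states. Fbl, the mRNA of fibrillarin itself, had 1002 and 830 reads against 326 and 188 (-1.85, -2.03 to -1.67, and -2.50, -2.74 to -2.27). Nop56 had 2452 and 2325 against 1464 and 2681 (-0.97 and -0.15), and Nop58 had 2492 and 2104 against 2135 and 3385 (-0.45 and 0.33); both hold snoRNAs in their introns. Snu13, the protein that recognises the kink-turn of the box C/D motif, had 229 and 218 against 59 and 39 (-2.18 and -2.84). The assembly factor Znhit3 was the lower member, with 84 and 94 reads against 1 and 4. Znhit6 had 470 and 469 against 733 and 229, a ratio of 0.41 (0.24 to 0.58) in AF357425-High and of -1.39 (-1.63 to -1.16) in AF357425-Low.

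Other lists of RNA making had medians near that of all genes in AF357425-High and above it in AF357425-Low. For proteins of the H/ACA particle and Cajal body the list median lay at 0.02 and 0.61 from that of all genes. Proteins of the H/ACA particle and Cajal body had 0 of 10 higher and 3 lower, with Wrap53 at 265 and 263 reads against 8 and 37, Nop10 at 655 and 547 against 56 and 65, and Dkc1, the pseudouridine synthase, at 614 and 600 against 584 and 788. Ribosome biogenesis and RNA polymerase I genes had 0 of 39 higher and 8 lower. Without the mitochondrial ribosomal RNAs in the totals 5 were higher, where 6.24% of all measured genes were. Their median of -2.05 and -1.38 lay at 0.1 and 0.38 from that of all genes. Their range ran from the polymerase I factor Taf1c (285 and 263 against 10 and 8) and the processing factor Bop1 (1908 and 1742 against 79 and 90) to Utp3 (619 and 580 against 1360 and 1502; 0.91, 0.77 to 1.05, and 1.01, 0.87 to 1.15). Utp3 and Mphosph10 (0.56 and 1.33) encode proteins of the small-subunit processome, and neither passed the line by library totals.

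The mRNAs of the cytoplasmic ribosomal proteins were low. Of 78 measured, 42 were lower (69 by library totals) and 0 higher, and 56 lay below the median of all genes in both states, with a list median of -2.64 and -2.71. Rplp0, of the ribosomal stalk, had 22340 and 22442 reads against 1276 and 924 (-4.36, -4.44 to -4.28, and -4.96, -5.06 to -4.87), and Rpl41 had 9130 and 8922 against 541 and 431. Rpl22 was an exception with 1539 and 1593 against 2505 and 2008 (0.48 and -0.03). Rps3a3, a copy within Pde4d that can share reads with other copies and was measured only through its pulldown reads, had 18 and 16 against 32 and 35. Neither of the last pair was called by library totals.

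**Figure D3:**
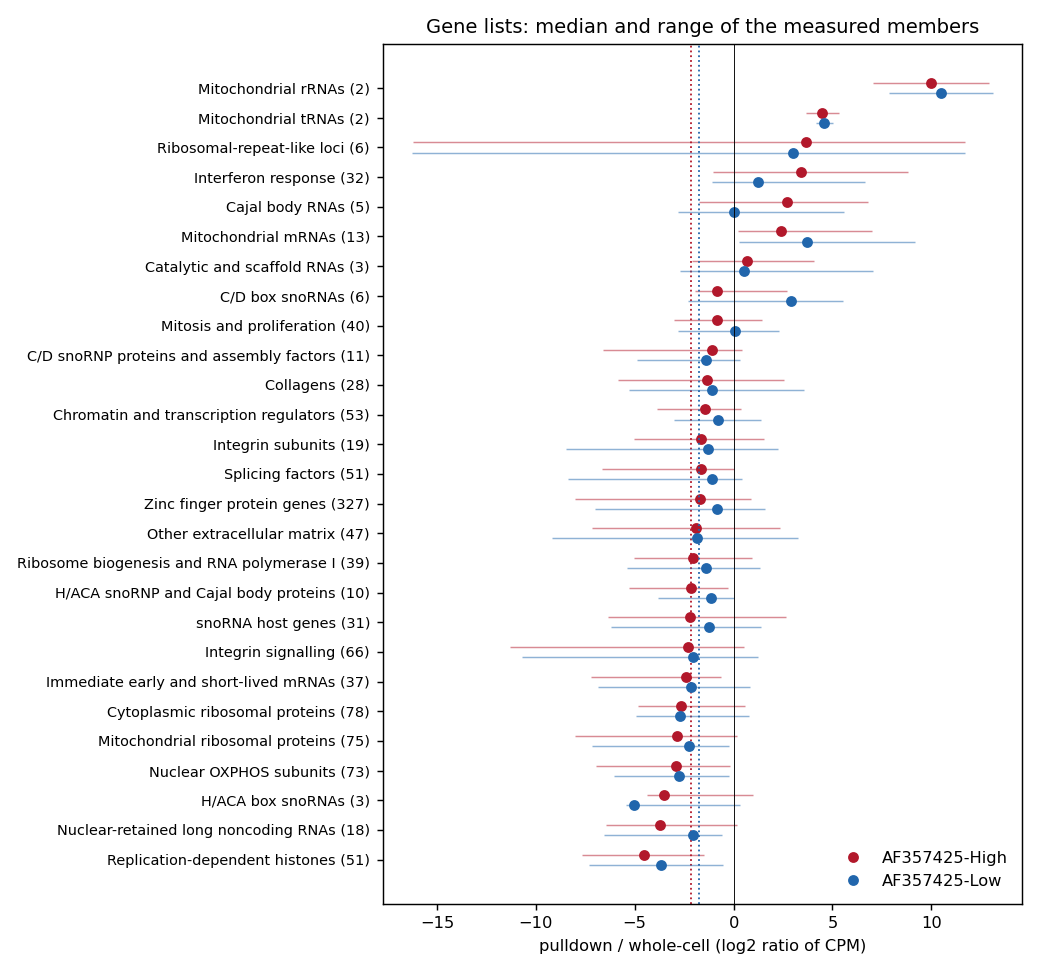
Median (point) and range (line) of the log2 ratio of pulldown to whole-cell CPM (horizontal axis) over the measured members of each of 27 gene lists, with their number in brackets, for AF357425-High (red) and AF357425-Low (blue); dotted lines are the medians of all measured genes. Mitochondrial RNAs and the interferon response lie to the right, replication-dependent histones lie farthest left at -4.52 and, in AF357425-Low, H/ACA box snoRNAs at -5.03.

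Histone mRNAs stood out among the low groups. Of 51 measured replication-dependent histone genes, whose mRNAs end in a stem-loop instead of a poly(A) tail, 34 were lower (45 by library totals) and 0 higher, and the median was -4.52 and -3.66, which is -2.36 and -1.91 from that of all genes. Hist1h4h had 175 and 244 reads against 1 and 5, and Hist1h3a 93 and 122 against 2 and 1. The highest members, Hist3h2a (184 and 108 against 75 and 77) and Hist2h2be (88 and 71 against 24 and 63), were not called. Summed over the list, whole-cell RNA held 596 and 714 CPM and the pulldowns 53.8 and 89.8 CPM. Close copies of these genes can split reads.

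Regulators of transcription lay above the median of all genes without being called higher. Of 53 measured chromatin regulators, 37 lay above the median of all genes in both states, 0 were higher and 4 lower, and the median was -1.47 and -0.80. Chd2, a chromatin remodeller that overlaps Chaserr, had 3251 and 2656 reads against 2304 and 8885 (-0.72, -0.80 to -0.65, and 1.38, 1.32 to 1.45), so its pulldown level was under whole-cell RNA in AF357425-High and above it in AF357425-Low. Smarca2, an ATPase of SWI/SNF complexes, had 2014 and 2266 against 2833 and 3360 (0.26 and 0.21). By the mean of both states the lowest members were Chd7 (211 and 230 against 17 and 57) and Med23 of the Mediator (1164 and 1050 against 101 and 255), both called by library totals only.

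Zinc finger protein genes, most of which encode DNA-binding repressors, had 210 of 327 measured members above the median of all genes in both states, with a list median of -1.71 and -0.85; 0 were higher and 25 lower. They ran from Zfp213 (223 and 245 reads against 1 and 7) and Zfp428 (116 and 99 against 3 and 1) to Zfp81 (299 and 217 against 331 and 840) and Zfp37 (57 and 39 against 121 and 134; 0.86, 0.39 to 1.34, and 1.42, 0.90 to 1.97). Splicing factor genes had 31 of 51 above that median, 0 higher and 12 lower, near the 23.2% of all measured genes that were lower. The core snRNP proteins Snrpf (257 and 256 against 3 and 1) and Snrpd2 (646 and 569 against 47 and 37) were their lowest members. The RNA-binding proteins Hnrnpd (0.02 and 0.31) and Hnrnpa2b1 (0.01 and 0.45) were their highest and were not called by library totals.

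Matrix genes, which make up much of a fibroblast's mRNA, were mixed. Of 28 measured collagens 2 were higher and 4 lower, with a median of -1.37 and -1.11. Col14a1, a collagen that decorates fibrils, had 83 and 46 reads against 569 and 685 (2.55, 2.22 to 2.90, and 3.54, 3.11 to 4.0), and Col28a1 had 341 and 307 against 1298 and 1243 (1.70 and 1.66). Col7a1, of anchoring fibrils, was lower with 1140 and 1484 against 27 and 49, and Col20a1 had 97 and 55 against 2 and 7. Col1a1, the main chain of type I collagen, had 77328 and 84317 reads against 26132 and 30196 (-1.79, -1.81 to -1.77, and -1.84, -1.86 to -1.82), which was lower by library totals only and above the median of all genes in AF357425-High.

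Of 47 other matrix genes 3 were higher and 18 lower. Ogn, a small leucine-rich proteoglycan of fibrils, had 529 and 361 reads against 3153 and 4486 (2.35, 2.21 to 2.48, and 3.28, 3.12 to 3.43). Postn, the adhesion protein periostin, had 8876 and 8103 against 35704 and 47579 (1.78 and 2.19). Both overlap another annotated gene, and in both all pulldown values exceeded all whole-cell values. The protease gene Mmp3 had 242 and 448 reads against 2 and 1, and perlecan, encoded by Hspg2, had 56684 and 61733 against 1838 and 1848 (-5.17 and -5.42). Fn1, which encodes fibronectin, a main integrin ligand, was lower with 694002 and 874838 reads against 92205 and 85066 (-3.14, -3.15 to -3.13, and -3.72, -3.73 to -3.71), 8.81-fold and 13.2-fold.

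Integrins, the receptors of the matrix, are named in the study's title. Of 19 measured subunit genes 0 were higher and 4 lower, near the 23.2% of all measured genes that were lower, with a list median of -1.65 and -1.31. Without the mitochondrial ribosomal RNAs in the totals 4 were higher, where 6.24% of all measured genes were. Itga7, a laminin receptor subunit that overlaps Mettl7b, had 388 and 560 reads against 14 and 2, and Itga3 had 3852 and 4141 against 198 and 254 (-4.51 and -4.39). At the other end, Itga4 had 17 and 17 against 57 and 102 (1.52, 0.72 to 2.39, and 2.23, 1.48 to 3.06). The collagen receptor subunit Itga1 had 3160 and 2135 against 6054 and 9970 (0.71 and 1.86). Neither passed by library totals in both states, and Itga4 was measured only through its pulldown reads. Of 66 measured integrin signalling genes 0 were higher and 25 lower (50 by library totals), with a median of -2.33 and -2.06. Over all measured genes, 23.2% were lower by both totals and 59.7% by library totals. The small GTPase gene Rap1a had 885 and 731 against 1472 and 2218 (0.51 and 1.24) and Ppfia1, a liprin, 3058 and 2612 against 3318 and 4547 (-0.11 and 0.44). Trip6, a zyxin-family adaptor, was lower with 1053 and 897 against 44 and 40.

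Ilk, the integrin-linked kinase gene (chromosome 7, 105736590 to 105742925), had 4325 and 3924 whole-cell reads but 2 and 0 pulldown reads, the lowest ratio of the named genes that are no ribosomal-RNA-like loci (-11.31, -14.35 to -9.45, in AF357425-High, and at least 1680-fold lower in AF357425-Low). Rrp8 and Taf10 overlap it on the opposite strand. Fragments shared with a neighbour would be left out of its count where strand was not used, and whether that differs between the kinds of library was not tested.

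Most genes in the list of mitosis and proliferation lay above the median of all genes. Of 40 measured, 30 lay above the median of all genes in both states, 2 were higher and 1 lower by both totals (10 lower by library totals, and 15 higher without the mitochondrial ribosomal RNAs in the totals), and the median was -0.85 and 0.05. Mki67, whose protein coats mitotic chromosomes, had 2602 and 3330 reads against 8259 and 13580 (1.44, 1.37 to 1.5, and 1.67, 1.61 to 1.72). Cenpf, of the kinetochore, had 513 and 657 against 1515 and 4171 (1.33 and 2.31). Neither overlaps an annotated gene. The lowest were subunits of the replicative helicase, Mcm7 (1668 and 1608 against 240 and 294) and Mcm2 (1141 and 1273 against 169 and 300), of which Mcm7 held under both totals. Immediate early genes, whose mRNAs are short-lived, had 0 of 37 higher and 13 lower with a median of -2.39 and -2.16, from Fosl1 (1244 and 1159 against 10 and 13) and Jund (2277 and 2292 against 50 and 42) to Klf6 (5605 and 4009 against 3493 and 5858; -0.91 and 0.19) and Klf10 (454 and 435 against 340 and 976; -0.64 and 0.81).

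Interferon-response genes were the nuclear list with the most members higher in the pulldown: 13 of 32 measured, and 0 lower, where 1.56% of all measured genes were higher. Of the 32 members 8 were measured only through their pulldown reads, and 5 of these are among the 13. All 32 lay above the median of all genes in both states, and the list median was 3.39 and 1.22. Their summed level was 311 and 256 CPM in whole-cell RNA against 2910 and 500 CPM in the pulldowns. The protein products are induced by interferon and act against viruses.

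Cxcl10, a chemokine that attracts T cells (chromosome 5, 92346638 to 92348889, overlapping Art3 on the opposite strand), had 8 and 2 whole-cell reads against 4301 and 259 pulldown reads, with ratios of 8.84 (7.86 to 10.06) and 6.66 (4.79 to 9.71). Rsad2, which encodes the antiviral enzyme viperin and overlaps no gene, had 14 and 9 against 2838 and 291 (7.44, 6.69 to 8.31, and 4.66, 3.71 to 5.80). Ifit3, which binds viral RNA in a complex, had 166 and 134 against 7866 and 765 (5.34, 5.12 to 5.57, and 2.15, 1.89 to 2.43). Both pulldowns lay above both whole-cell libraries for these genes, and the AF357425-High pulldown was the highest. Cxcl10 and Rsad2 were measured only through their pulldown reads, so the filter fixed their direction. The other 10 called members were Ifit1, Ifit3b, Isg15, Gbp3, Iigp1, Oasl2, Parp14, Cmpk2, Mx1 and Mx2, the last pair classed as pseudogenes in the reference assembly. Iigp1, an interferon-inducible GTPase, had 152 and 67 against 7410 and 1241, and Isg15, a ubiquitin-like protein, 94 and 78 against 2985 and 528. By the mean of both states the lowest members were the transcription factor genes Irf9 with 731 and 685 against 461 and 481 (-0.89 and -0.87) and Irf1 with 284 and 249 against 162 and 202 (-1.04 and -0.66), which were not called.

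All 32 measured members of the list lay above the median of all genes in both states, and 13 were called higher. The promoter windows of 3 of the called genes, Cxcl10, Rsad2 and Ifit3, are shown. Each runs from 250 bases before to 50 bases after the annotated start, 5′ to 3′ on the gene's strand, from RefSeq on GRCm38.p6, with the letters GAAA, any 2 bases, GAAA (on the other strand TTTC, any 2 bases, TTTC) in capitals, a core that resembles the interferon-stimulated response element.
Cxcl10, chr5:92348840-92349139, minus strand: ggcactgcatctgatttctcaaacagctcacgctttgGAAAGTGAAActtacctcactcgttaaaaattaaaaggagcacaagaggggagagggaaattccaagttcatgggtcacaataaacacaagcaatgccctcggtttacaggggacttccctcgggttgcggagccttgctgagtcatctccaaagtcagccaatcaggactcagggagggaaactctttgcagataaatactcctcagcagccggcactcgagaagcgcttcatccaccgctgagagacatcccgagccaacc
Rsad2, chr12:26456403-26456702, minus strand: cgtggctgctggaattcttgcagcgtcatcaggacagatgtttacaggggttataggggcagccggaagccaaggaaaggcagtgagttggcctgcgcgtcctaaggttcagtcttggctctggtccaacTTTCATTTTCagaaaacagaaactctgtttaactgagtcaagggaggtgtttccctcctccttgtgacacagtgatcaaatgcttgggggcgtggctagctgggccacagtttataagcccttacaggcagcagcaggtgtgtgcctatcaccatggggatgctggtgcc
Ifit3, chr19:34583279-34583578, plus strand: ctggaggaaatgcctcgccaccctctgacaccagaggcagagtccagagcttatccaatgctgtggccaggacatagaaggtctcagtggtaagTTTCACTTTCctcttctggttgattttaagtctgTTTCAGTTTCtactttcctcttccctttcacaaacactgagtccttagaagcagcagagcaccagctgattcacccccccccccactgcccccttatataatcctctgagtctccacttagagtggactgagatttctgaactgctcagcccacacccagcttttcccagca

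Of the measured interferon-response genes 22 had a window in the reference table, and 13 of them (59.1%) held these letters on either strand, as did 7 of the 9 called higher that had one (77.8%). Over all 32851 windows of the table the share was 3.44%, and over its 27025 genes 3.99%. The list was made of genes known to respond to interferon, so the letters describe its members and not the pulldown, and a match is no proof of a site.

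Beyond the lists, the named extremes show which further genes lay far out in both states. Higher were H2-T24, a nonclassical MHC class I gene (2 and 0 whole-cell reads against 318 and 684 pulldown reads), the transporter gene Mfsd4a (6 and 4 against 554 and 713) and Slc18a2, the vesicular monoamine transporter (0 and 0 against 183 and 370, at least 52.1-fold and 96.1-fold higher). Olfr1318, an olfactory receptor gene, had 1 and 0 against 49 and 159. In all of these the whole-cell libraries held at most 6 reads, so the size of the ratio is uncertain. All of them were measured only through their pulldown reads, so the filter fixed their direction and an interval beyond 2-fold is a description only. H2-T24 and Mfsd4a overlap another gene.

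Lower were Gnas, the stimulatory G protein subunit (16282 and 18042 reads against 25 and 40; -9.57, -10.20 to -9.01, and -9.18, -9.66 to -8.73), Gnpnat1 of the hexosamine pathway (727 and 633 against 2 and 2), and the metallothionein gene Mt2 (577 and 516 against 1 and 2). Med10 of the Mediator had 632 and 588 whole-cell reads and 0 in both pulldowns, at least 247-fold and 251-fold lower. Bckdha, of branched-chain amino acid breakdown, had 684 and 652 against 0 and 1, and Pcdhga10, of the gamma protocadherin cluster, whose members share exons, 683 and 643 against 0 and 0. The flap endonuclease gene Fen1 (437 and 516 against 1 and 0), the selectin gene Selp (559 and 298 against 0 and 2) and Slirp, which stabilises mitochondrial mRNAs (444 and 362 against 0 and 0) completed the 10 lowest with Ilk. Of these 10 lower genes 7 overlap another gene, as do 5 of the 10 higher ones, against 48.0% of all measured genes with a known position. Over larger sets the share was 44.0% of higher genes, 47.6% of lower genes and 58.1% of the 43 genes below -6 in both states.

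The same rule among protein-coding genes that overlap no other annotated gene, applied after the values had been seen, gave further names. Ptn, the growth factor pleiotrophin, had 147 and 54 reads against 4679 and 6850 (4.76, 4.53 to 5.01, and 6.63, 6.24 to 7.04). Scara5, a ferritin receptor of stromal cells, had 6 and 4 against 129 and 243. Interferon-inducible genes outside the list were also there: Gbp5 (0 and 1 against 288 and 52), Tnfsf10, the death ligand TRAIL (1 and 1 against 231 and 30), and Slfn8 (84 and 45 against 4413 and 1123). Scara5, Gbp5 and Tnfsf10 were measured only through their pulldown reads, so the filter fixed their direction. On the low side were Gpx4, the selenoprotein that reduces lipid peroxides (2193 and 2396 against 24 and 30; -6.74, -7.39 to -6.16, and -6.68, -7.25 to -6.16), the nuclear receptor gene Nr2f6 (980 and 902 against 1 and 8), Cisd3 (188 and 192 against 2 and 2), Ttbk1 (390 and 387 against 1 and 5) and Pdcd2 (251 and 237 against 0 and 0).

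**Figure D4:**
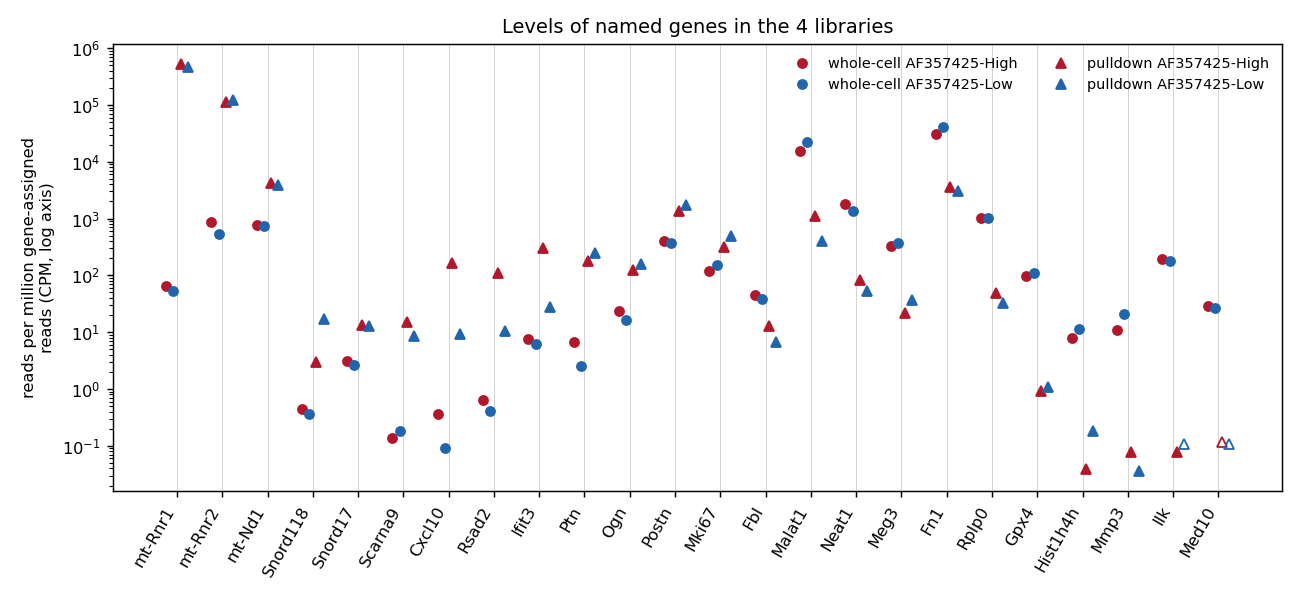
Level of 24 named genes in the 4 libraries (CPM, log axis); circles are whole-cell RNA and triangles the pulldown, red AF357425-High and blue AF357425-Low, and open symbols mark 0 reads drawn at the level of 3 reads. Triangles lie above circles from mt-Rnr1 to Mki67 and below them from Fbl to Med10.

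Among nuclear protein-coding genes with a known position (11149), the ratio went with gene span, the distance from annotated start to end with introns. Genes were split into 8 bins of nearly equal number. The median ratio was -2.86 and -2.52 in the bin of the shortest spans (median 3770 bases) and -1.77 and -1.29 in that of the longest (median 178000 bases), a difference of 1.09 and 1.23. The 7th bin was slightly higher than the 8th in both states. The Spearman correlation across genes was 0.245 and 0.273, a description over genes that share libraries and depth. Among the 5852 genes that overlap no other gene it was 0.254 and 0.279. Exon length was not used here, so span stands for introns as well as exons.

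Promoter GC content had no such order. Across 8975 genes with a promoter window the Spearman correlation was -0.0155 and -0.00762, and the median ratio was highest at both ends, -1.80 and -1.33 in the lowest GC bin and -1.85 and -1.45 in the highest. The bin of lowest promoter GC (26.3% to 50.7%) held 40 higher genes among its 1131, and no other bin, of 1057 to 1199 genes, held more than 13. Over all measured protein-coding genes, mitochondrial ones included, 109 of 11162 were higher. How many of the 40 were measured only through their pulldown reads was not counted. Of the higher genes, 62 fell among the 1394 genes of the bin with the lowest whole-cell level (up to 4.87 CPM). A gene measured there could pass the filter through its pulldown reads, so this count follows in part from the filter.

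**Figure D5:**
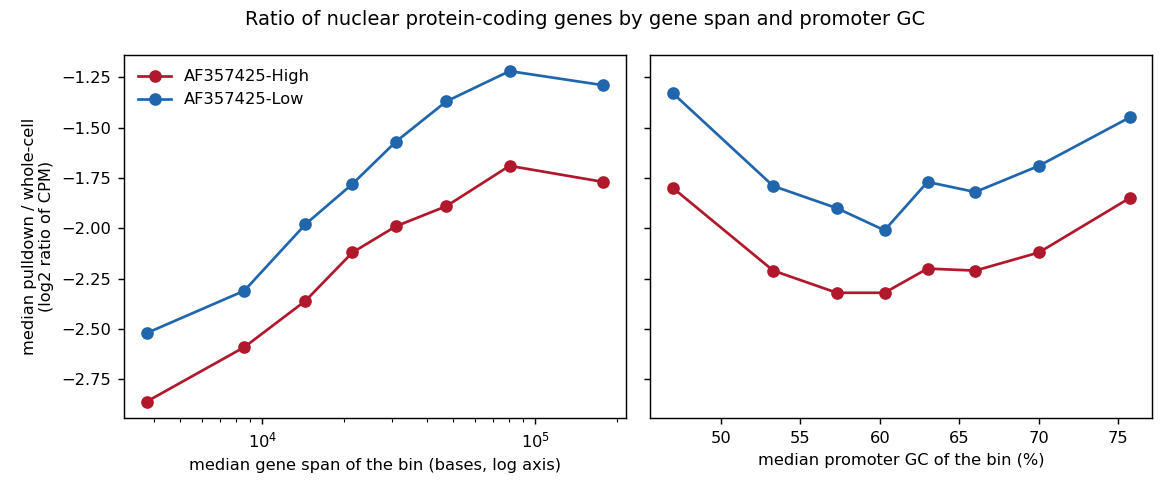
Median log2 ratio of pulldown to whole-cell CPM (vertical axis) of nuclear protein-coding genes in 8 bins of gene span in bases (left, log axis) and of promoter GC in percent (right), for AF357425-High (red) and AF357425-Low (blue). The medians climb from -2.86 and -2.52 to -1.77 and -1.29 with span, and lie highest at both ends of GC.

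The states differed in the ratio itself for a minority of genes. For the 11356 genes that had 10 or more reads in every library, the change was the ratio in AF357425-High minus that in AF357425-Low, with a normal-approximation 95% interval of counting error, and it lay beyond 2-fold upward for 135 genes (1.19%) and downward for 578 (5.09%). The median change was -0.36. With TMM scaling the split was 306 upward and 182 downward, so the excess of downward changes did not hold there; without the mitochondrial ribosomal RNAs in the totals it did, with 182 upward and 390 downward.

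Interferon-response genes moved upward against this median. Of the 24 members with enough reads 16 were higher in AF357425-High and 0 lower, where 1.19% of all genes tested were higher. Their median change was 1.71. Ifit3 changed by 3.18 (2.84 to 3.53), Irf7 by 3.10 (2.49 to 3.72), and the lowest changes were those of Irf1 (-0.38, -0.76 to 0.01) and Irf9 (-0.02, -0.26 to 0.21). The named genes with the greatest upward change were Ifi207 of the interferon-inducible p200 family (50 and 55 reads against 985 and 79; 3.91, 3.27 to 4.55), Tgtp1, a T cell GTPase (13 and 15 against 371 and 32), Tmem140 (76 and 76 against 144 and 12), Ifi44 (43 and 50 against 8676 and 990; 3.48, 2.89 to 4.08) and Apol9b (60 and 65 against 186 and 20). In each of them whole-cell reads were alike in the states and the pulldown reads differed. Ifi207 and Tgtp1 have close paralogs, and their counts are uncertain.

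Downward, the greatest changes were those of the host gene Snhg15 (210 and 163 reads against 47 and 471; -3.56, -4.08 to -3.04), Zc2hc1c (16 and 13 against 11 and 105), Plcl1, a phospholipase-like protein (323 and 284 against 102 and 888; -3.18, -3.55 to -2.80), Cnmd, the cartilage protein chondromodulin (99 and 14 against 381 and 520), and Cfap69 (270 and 249 against 12 and 104). Snhg15, Zc2hc1c and Plcl1 overlap another gene. Cnmd differed in whole-cell RNA too and was higher in the pulldown in both states (1.72 and 4.86). Of the host genes 8 of 27 changed downward and 0 upward, with a median of -0.76, and of the zinc finger genes 35 of 311 with a median of -0.74. Over all 11356 genes 5.09% changed downward, with a median of -0.36. The downward excess over all genes did not hold with TMM scaling, and the counts of these lists were not run with it. Plcl1 was the only gene with a usual symbol among the 5 called in opposite directions by library totals, lower in AF357425-High (-1.89, -2.23 to -1.57) and higher in AF357425-Low (1.29, 1.09 to 1.48).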

How the data were processed

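The authors deposited fragment counts for each Ensembl gene, 1 table per kind of library. The submitters' processing notes name cutadapt 2.4, STAR 2.6.0c, HTSeq 0.9.1, StringTie 1.3.4 and the build GRCm38, without a role or order; the gene annotation and the strand setting are not known here. The summary lines of HTSeq were left out of the gene values. Groups follow the sample titles.

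Symbols were paired with 55450 of 55536 gene IDs, and RefSeq classes, positions and overlaps (GRCm38.p6) with 38087 by symbol; 11772 measured genes had a class. Ratios were computed from CPM in Python 3.11.15 with scipy 1.17.1. A library with 0 reads was set at 3 reads and the fold given as a bound. Named genes are the 10 highest and 10 lowest called in both states by both totals, with at least 30 reads in the denser kind of library and no provisional symbol; the 2 highest and 2 lowest of each of 27 lists, of which a few are summarised; fixed names; and the 5 greatest changes each way. Members, lists and rules were chosen with earlier results of these data known. Alternatives used TMM (edgeR 4.0.16), median-of-ratios (DESeq2 1.42.0, R 4.3.3), other filters, lines and totals. The planned main length measure, the union of exons, needs an exon annotation that was not used here, so gene span took its place. On simulated tables with 200 of 12795 genes changed and counting error only, intervals held the true ratio for 95.8% of genes. In them 0 unchanged genes were called, and 89.0% of 4-fold and 58.0% of 2.5-fold changes were recovered. The simulation used the error that the interval assumes, with unchanged genes alike in both kinds of library. It therefore checks the computation and does not speak for false calls in the real libraries.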

Additional observations from a re-analysis of the deposited data

Results flagged for a closer look

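For some named genes the pulldown lay above whole-cell RNA in one state and below it in the other, with both counting intervals clear of 0. Each value is the ratio in AF357425-High minus that in AF357425-Low; with 1 library per group the difference between the states was not tested. Above in AF357425-High alone were Tmem140 (3.72), Apol9b (3.46) and the snoRNA assembly factor Znhit6 (1.81). Above in AF357425-Low alone were the C/D box snoRNA Snord83b (-5.43), the host gene Snhg15 (-3.56), Plcl1 (-3.18), the chromatin remodeller Chd2 (-2.11), the transcription factors Klf10 (-1.45) and Klf6 (-1.10), the particle core protein Nop58 (-0.78) and Ppfia1 (-0.55). Where 0 lies depends on the scaling: with totals that leave out the mitochondrial ribosomal RNAs, which move the ratios up by 1.45 and 1.31, Chd2, Klf10, Klf6, Nop58 and Ppfia1 lay above whole-cell RNA in both states. Tmem140, Apol9b and Snhg15 kept opposite sides under the 5 scalings run. Znhit6 came to -0.08 in AF357425-Low without the mitochondrial ribosomal RNAs and to 0.03 with TMM. With median-of-ratios Snord83b came to 0.02 and Plcl1 to 0.09 in AF357425-High.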

How the results depend on the processing

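Each group has 1 library and no replicate number, so no library could be left out of a group. A fit of the kind of library with the state as a block was not run, since it would take the states as replicates. The 200 higher and 7634 lower genes became 798 and 2965 with totals without mt-Rnr1 and mt-Rnr2, 1109 and 2322 with TMM, 1406 and 1912 with median-of-ratios and 939 and 2633 without the 20 most abundant genes; these scalings take a smaller pulldown total by construction. With a filter of 5 CPM 121 were higher, with no filter beyond 1 read 320, at a 4-fold line 105 and 4074, and among genes that overlap no other 93 and 3577, where fewer genes were tested. Changes between the states, 135 upward and 578 downward, became 306 and 182 with TMM and 74 and 326 at 50 or more reads; the cause of the former was not tested. The difference by gene span was 1.20 and 1.32 among genes without overlap, against 1.09 and 1.23.

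In AF357425-High some genes lower by library totals came out at or above 0: Rian at 0.10 with TMM and 0.28 with median-of-ratios, Scarna2 at 0.03 and 0.22, Col1a1 at 0 and 0.19, and Fbl at 0.14 with median-of-ratios. At 5 CPM the median of the other matrix genes relative to all genes turned from 0.25 to -0.21, and 21 of the other list medians moved by over 0.1, among them the C/D box snoRNAs in AF357425-High from 1.34 (6 genes) to 4.48 (2 genes) and the mitochondrial mRNAs in AF357425-Low from 5.46 to 4.09. A scaling adds nearly the same constant to every gene of a state, so list medians relative to all genes cannot test it. Exon length and exon number as measures were not run. Depth limits genes with few reads in either library: Cxcl10, with 2 whole-cell reads in AF357425-Low, had an interval of 4.79 to 9.71.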
